A study of Mus musculus with 7 samples.

Results

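The regions described here were more accessible in IL-4+ CD4+ T cells of the mediastinal lymph node (LN) than in 2 populations of lung CD4+ T cells of mice infected with the nematode Nippostrongylus brasiliensis. They were chosen by a rule on ATAC-seq density. The lower of the 2 LN libraries had to exceed the highest of the 5 lung libraries by at least 1 on the log2 scale, and the mean of the LN libraries had to reach 2.3, which is a density of about 5 normalized transposase insertions per kilobase. Of 113820 regions in the table, 877 (0.771%) met the rule, or 1.87% of the 46949 regions whose LN mean reached that density. Because the rule used every library, the difference between LN and lung is given below as a description and was not tested.

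All mice were C57BL/6, carried a cytokine reporter and were sampled 8 days after a subcutaneous dose of 500 L3 larvae, and each library was made from 50000 sorted cells. The LN IL-4+ group (n = 2) and the lung IL-4+ group (n = 3) were GFP+ CD4+ T cells of IL-4-4get GFP reporter mice, and the lung IFNγ+ group (n = 2) was YFP+ CD4+ T cells of IFN-gamma-Great YFP reporter mice. A reporter marks cells that have switched on the cytokine gene, not the protein they release. The lung IFNγ+ cells therefore differed from the others in reporter line as well as in cytokine, and uninfected mice and reporter-negative cells were not analysed here. Within a group the study gives separate mice, all from a single experiment. Whether the LN and lung IL-4+ libraries came from the same mice is not stated.

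In ATAC-seq, a transposase cuts and tags DNA that is not tightly packed in nucleosomes, so many insertions in a region mark DNA that regulatory proteins can reach. In a lymph node, many IL-4+ CD4+ T cells during helminth infection are T follicular helper (Tfh) cells, which enter B cell follicles through the chemokine receptor CXCR5, depend on the repressor BCL6 and help B cells. T helper 2 (Th2) cells instead leave the node and act in tissue such as the lung. TCF-1 and LEF-1, HMG-box proteins of the TCF/LEF family, are known for their part in naive, memory and Tfh cells.

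The sequences of 7 of these regions are shown because they pair regulatory DNA at Tfh genes with the regions that had some of the widest gaps between LN and lung. Each is the centre of its region with 100 bases on either side, on the plus strand of GRCm38/mm10. Capitals mark the TCF/LEF letters ATCAAAG or their reverse complement CTTTGAT, and the E-box letters CAGCTG and CAGGTG on either strand, to which E proteins are known to bind. The first lies in an intron of Tox2, which codes for an HMG-box factor of Tfh cells, at chr2:163299012-163299212. The second lies past the end of Btla, which codes for an inhibitory receptor, at chr16:45261497-45261697. The next is in an intron of Cxcr5, at chr9:44533400-44533600, and that of Bcl6 is 2133 bp past the 3′ end of the gene, at chr16:23962547-23962747. The last 3 are an intergenic region 95290 bp from the nearest start, that of Zfp36l1, at chr12:80017604-80017804, an intronic region of Pacsin2 at chr15:83431318-83431518, and an intergenic region 24871 bp from the start of Bdkrb2 at chr12:105538255-105538455.
Tox2: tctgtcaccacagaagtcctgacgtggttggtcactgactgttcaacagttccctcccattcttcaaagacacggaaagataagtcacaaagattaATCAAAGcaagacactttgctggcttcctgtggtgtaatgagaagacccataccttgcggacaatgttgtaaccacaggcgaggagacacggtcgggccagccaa
Btla: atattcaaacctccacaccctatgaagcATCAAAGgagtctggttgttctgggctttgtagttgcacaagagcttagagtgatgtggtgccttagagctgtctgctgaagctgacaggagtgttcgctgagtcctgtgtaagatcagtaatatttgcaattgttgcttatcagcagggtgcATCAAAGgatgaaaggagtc
Cxcr5: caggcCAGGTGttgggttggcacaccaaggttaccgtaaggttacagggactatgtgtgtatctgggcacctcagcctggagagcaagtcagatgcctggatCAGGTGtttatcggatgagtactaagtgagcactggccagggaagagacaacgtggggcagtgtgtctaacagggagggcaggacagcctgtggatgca
Bcl6: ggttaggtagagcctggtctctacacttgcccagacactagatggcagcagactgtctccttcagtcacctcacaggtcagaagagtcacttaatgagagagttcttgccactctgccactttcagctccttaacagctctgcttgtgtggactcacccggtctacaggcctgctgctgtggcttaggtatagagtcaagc
Near Zfp36l1: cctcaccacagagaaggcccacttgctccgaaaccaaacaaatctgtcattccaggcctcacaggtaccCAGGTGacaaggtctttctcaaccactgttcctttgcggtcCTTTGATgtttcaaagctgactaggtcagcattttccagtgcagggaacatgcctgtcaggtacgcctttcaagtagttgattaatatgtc
Pacsin2: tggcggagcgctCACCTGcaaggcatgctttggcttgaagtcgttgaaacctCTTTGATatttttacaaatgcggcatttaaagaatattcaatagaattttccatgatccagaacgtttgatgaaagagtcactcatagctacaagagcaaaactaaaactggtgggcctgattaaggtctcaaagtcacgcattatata
Near Bdkrb2: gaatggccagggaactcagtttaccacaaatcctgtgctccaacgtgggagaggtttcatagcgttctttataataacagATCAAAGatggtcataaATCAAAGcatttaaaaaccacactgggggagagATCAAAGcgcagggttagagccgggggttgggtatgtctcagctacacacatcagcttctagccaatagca
In these windows, TCF/LEF letters stood once in the Tox2, Zfp36l1 and Pacsin2 sequences, at 2 places in the Btla sequence and at 3 places in the Bdkrb2 sequence. The Zfp36l1, Pacsin2 and Bdkrb2 regions were picked from the 10 widest gaps for holding these letters in the window. Their matches were thus fixed by the choice and are no result. The Cxcr5 window held the E-box CAGGTG at 2 places and no TCF/LEF letters, and the Bcl6 window held neither.

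Not all of these regions were closed in the lung. At the density of 5 used by the study to call a region accessible, 697 of the 877 regions (79.5%) were accessible in neither lung population and 180 (20.5%) were still accessible in at least 1 of them. The lung IL-4+ and the lung IFNγ+ cells each had 145 of these, and 110 were accessible in both. In 616 regions every single lung library was below the minimum. They are therefore called LN-high regions here.

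The LN-high regions were on average well above the table in the LN and below it in the lung. Their median log2 density was 3.45 over LN means, against 1.37 over lung IL-4+ means and 1.40 over lung IFNγ+ means. The medians of all regions were 2.06, 2.07 and 2.07 in the same order. On the linear scale the medians of the LN-high regions were 10.9, 2.59 and 2.64 insertions per kilobase. The LN mean exceeded the higher of the lung means by a median of 3.61-fold and at most 11.5-fold. LN-high regions held between 0.745% and 0.844% of all normalized insertions in the LN libraries and between 0.191% and 0.212% in the lung libraries.

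**Figure D1:**
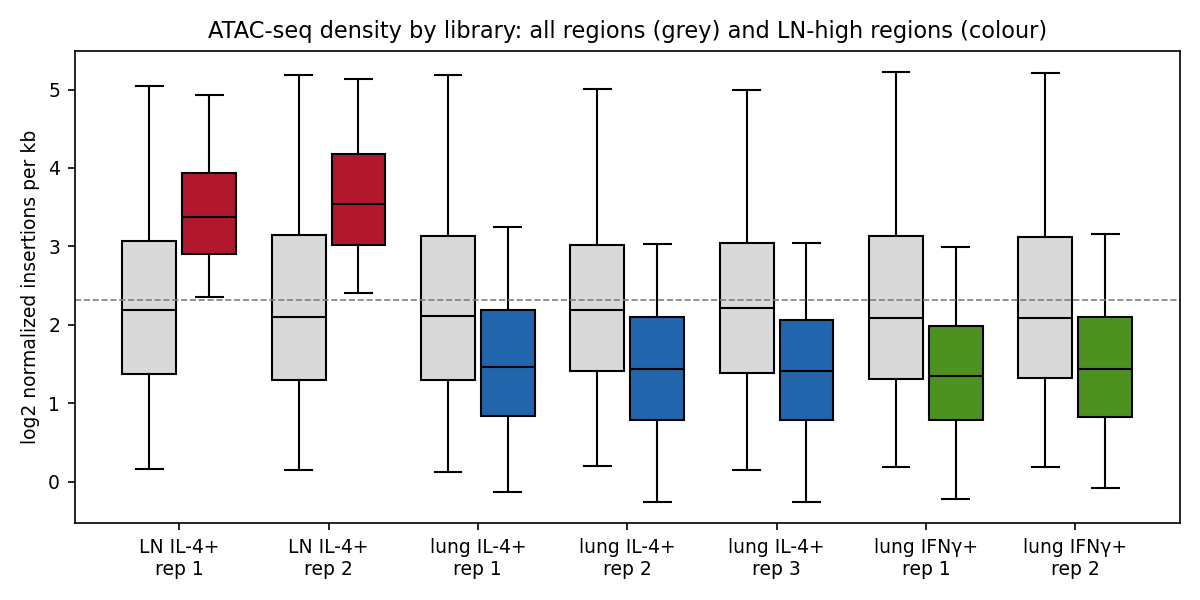
Log2 normalized insertions per kb in each of the 7 libraries for all 113820 regions (grey) and for the 877 LN-high regions (red, LN IL-4+; blue, lung IL-4+; green, lung IFNγ+). Boxes span the quartiles with the median as a line, whiskers reach the 5th and 95th percentiles, and the dashed line is the accessibility minimum; the LN-high medians are 3.38 and 3.54 in the LN and between 1.34 and 1.46 in the lung.

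The LN replicates did not have the same density in every LN-high region. Replicate 2 was the higher in 557 of 877 regions, with a median difference of 0.14, and the median absolute difference was 0.30. In 50 regions they differed by more than 1 on the log2 scale, which is as much as the rule asked between tissues. Behind these values stood a median of 165 and 427 rebuilt insertions per region in LN replicates 1 and 2, and between 37 and 93 in the lung libraries. Rebuilt insertions are whole counts recovered from the steps between the deposited values and are lower bounds.

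The libraries fell into 2 classes by the spread of their rebuilt counts over regions, and the classes cut across the groups. LN replicate 1 and lung IL-4+ replicates 2 and 3 had an interquartile range of log2 counts between 1.64 and 1.73, and the other 4 libraries between 2.87 and 3.05. Total depth ran from 14005923 to 91681969 rebuilt insertions. The rule fixes a gap of at least 1 within each class. Its median was 1.66 between LN replicate 1 and the lung libraries of its class and 1.78 between LN replicate 2 and those of its class.

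The gap, meaning the lowest LN library minus the highest lung library, had a median of 1.29 and a maximum of 2.86. It reached 2 in 51 regions. The 3 regions just inside the threshold had gaps of 1.00013, 1.00102 and 1.00277, and the 3 just outside had gaps of 0.999956, 0.99991 and 0.999666. The LN-high regions thus have no natural edge at this threshold.

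The rule was also applied with 1 library left out of the selection. Without LN replicate 1 it selected 2526 regions, and that replicate was above the highest lung library by at least 1 in 34.8% of them. Without LN replicate 2 it selected 2688, and that replicate was above by at least 1 in 31.9%. In the background, regions where the kept LN library reached the LN minimum, these shares were 2.48% and 3.10%. By any amount, replicate 1 was above in 80.4% (background 28.8%) and replicate 2 in 58.0% (background 28.4%). These shares are no independent check, because the selection had already taken regions that were low in the lung. A selection on 1 LN library thus held many regions where the other LN library did not reach the gap. Without a lung library the count was between 950 and 1082.

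Several LN-high regions lay at genes known from Tfh cells. Within the gene or 10 kb on either side, 10 of 28 listed Tfh genes (35.7%) had 1 or more, against 643 of 17021 genes with any region (3.78%). With the gene body alone the counts were 6 Tfh genes and 503 of all protein-coding genes. Tfh genes also had more regions each. Per region the shares were 2.17% (12 of 553) against 0.736% (662 of 89948). Both LN libraries were above all lung libraries in 19.7% of regions at the Tfh genes and in 10.1% of all regions. The same share was 25.6% at the listed B cell genes (11 of 43 regions) and 22.5% at the listed myeloid genes (9 of 40), so it was not particular to Tfh genes. Their part in the result was not tested. These are descriptions of a list drawn up with results of these data known.

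The Tox2 intron had the widest gap among Tfh genes. In the LN its log2 density was 4.12 and 4.22, in the lung IL-4+ libraries 1.6, 1.40 and 1.15, and in the lung IFNγ+ libraries 1.29 and 1.6. Both LN libraries stood 2.54 or more above every lung library, where the rule asked for at least 1. A second LN-high region, near the start of the same gene at chr2:163208356-163208759, had a gap of 1.46. Tox, which codes for a related HMG-box factor, had 2 LN-high introns, of which the one at chr4:6869935-6870893 measured 3.21 and 3.05 in the LN against 1.65, 1.21, 1.55, 1.86 and 1.73 across the lung.

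Surface receptors of Tfh cells formed another set. The Btla region measured 5.32 and 5.47 in the LN, 3.45, 3.45 and 3.73 in lung IL-4+ cells and 2.84 and 3.74 in lung IFNγ+ cells, so it was high in the LN and still accessible in the lung. The Cxcr5 intron likewise measured 5.16 and 5.07 in the LN against 3.09, 3.52 and 3.47 in lung IL-4+ cells and 3.69 and 3.89 in lung IFNγ+ cells. Here the lung IFNγ+ libraries were the higher of the lung groups. Cxcr5 had 20 regions in all, and in 7 of them both LN libraries were above the lung.

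Both chains of the IL-6 receptor, a cytokine receptor that is known to promote Bcl6 expression, had an LN-high region. The Il6ra intron at chr3:89892414-89893088 measured 3.76 and 3.80 in the LN, 2.29, 2.54 and 2.40 in lung IL-4+ cells and 1.78 and 1.65 in lung IFNγ+ cells. The region 3′ of Il6st, which codes for the shared signalling chain gp130, measured 4.11 and 4.56 in the LN, 2.66, 2.05 and 2.27 in lung IL-4+ cells and 2.37 and 2.35 in lung IFNγ+ cells. That neither overlapped between tissues follows from the rule.

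Another pair lay at regulators of transcription in follicular responses. The Bcl6 region measured 3.72 and 3.28 in the LN, 1.98, 2.15 and 1.92 in lung IL-4+ cells and 1.87 and 1.89 in lung IFNγ+ cells. It was the only one of 13 Bcl6 regions in which both LN libraries were above the lung. Pou2af1, which codes for the coactivator OCA-B of octamer-binding proteins, had an LN-high exon with 5.24 and 5.19 in the LN against 3.53, 3.49, 2.90, 3.72 and 4.01 across the lung. Another of the 5 Pou2af1 regions was lung-high, meaning that every lung library was at least 1 above both LN libraries, and it was the single such region at the listed Tfh genes. The remaining Tfh genes with an LN-high region were Sostdc1, which codes for a secreted BMP antagonist, with a gap of 1.38, and Angptl2, which codes for a secreted glycoprotein, with a gap of 1.10. Of the 10 Tfh gene regions, taking 1 per gene, 6 were still accessible in at least 1 lung population and 5 in both.

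**Figure D2:**
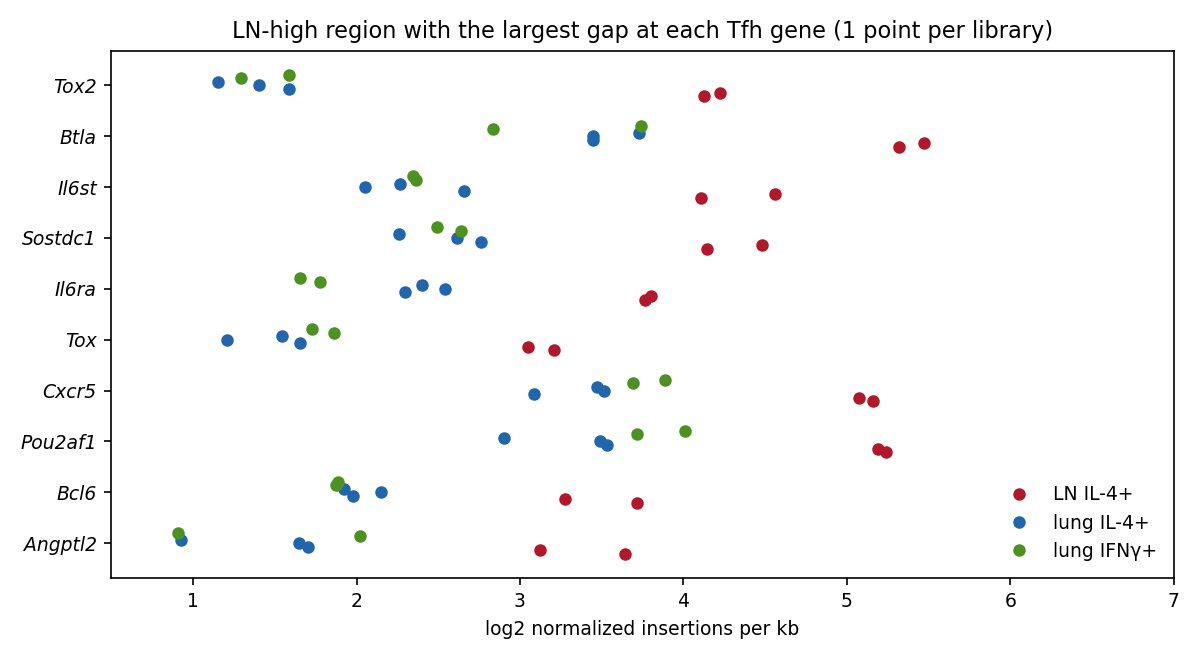
Log2 normalized insertions per kb of the LN-high region with the widest gap at each of the 10 Tfh genes that had one, with 1 point per library (red, LN IL-4+, n = 2; blue, lung IL-4+, n = 3; green, lung IFNγ+, n = 2). By the rule, every red point lies at least 1 to the right of all blue and green points; the gap runs from 1.10 at Angptl2 to 2.54 at Tox2.

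The other 18 listed Tfh genes had no LN-high region. At Tcf7, which codes for TCF-1, none of 15 regions had both LN libraries above the lung, and the best gap was −0.18. Its promoter region measured 4.43 and 3.62 in the LN. In the lung it measured 2.90, 3.58 and 3.80 in IL-4+ cells and 3.05 and 2.92 in IFNγ+ cells. Its best gap set LN replicate 2 against lung IL-4+ replicate 3, which are of different spread classes. Within each class the LN library was above the lung libraries. Normalized insertions summed over the 15 regions were also higher in the LN. They were 523 against 327 and 363 in the narrower class, and 216 against 164, 158 and 151 in the other. Lef1 came closer, with 15 of 78 regions above the lung in both LN libraries and a best gap of 0.77. The best gap was 0.84 at Sh2d1a, which codes for the adaptor SAP, 0.64 at Ascl2, 0.39 at Il21, 0.35 at Icos and 0.15 at Pdcd1, which codes for PD-1. At Id3, which codes for an inhibitor of E proteins, it was −0.02.

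Of 13 genes of LN homing and quiescence 1 had LN-high regions (7.69%, against 3.78% of all genes), with 2 of 483 regions (0.414%, against 0.736%). Within 25 kb the count was 2 genes. Both LN libraries were above the lung in 12.01% of these regions, near the 10.1% of all regions. The gene within 10 kb was Bach2, which codes for a repressor that restrains effector differentiation, with 2 LN-high introns among 117 regions. The one at chr4:32361603-32362003 measured 2.81 and 2.66 in the LN against −0.16, 1.06 and 1.06 in lung IL-4+ cells and 1.37 and 1.43 in lung IFNγ+ cells. Ccr7, whose product brings T cells into lymph nodes, had a best gap of 0.14.

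Effector genes held lung-high regions. Among regions at the 12 Th2 genes, 1 was LN-high (near Il17rb, which codes for an IL-25 receptor chain, in an intron of Chdh), while 17 of 243 (7.0%) met the mirrored rule. The mirrored rule selected 754 regions in all, the lung-high regions. At all protein-coding genes 0.736% of regions were LN-high and 0.550% were lung-high. Of 176 regions at 12 Th1 genes 0 were LN-high and 9 (5.11%) lung-high, and of 188 at 10 tissue residency genes 0 were LN-high and 6 (3.19%) lung-high. Of 134 regions at 10 genes of CD4 T cell identity 0 were in either set. At the share of all genes, lists of this size would hold few LN-high regions, so a count of 0 is near the background.

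Markers of other cells were looked up in the same way. The labelled cell type was checked first, and all 10 CD4 T cell identity genes had a region within 1 kb of a start, with a pooled density of 18.97 and 12.4 insertions per kilobase in the LN and 10.9 to 19.7 in the lung. Of 10 B cell genes, 5 had no region within 1 kb of a start, Cd79a and Ms4a1 among them, and the regions at the other 5 had a pooled density of 9.85 and 12.8 in the LN against 6.36 to 10.8 in the lung. Of 10 myeloid genes, Adgre1, Csf1r, Fcgr1, Lyz2 and Siglech had none, and the pooled density at the other 5 was 13.8 and 10.8 in the LN against 7.91 to 8.33 in the lung. LN-high regions lay at 2 of 7 myeloid genes with any region, with gaps of 1.48 near Cebpa and 2.44 near Flt3, which is 2 of 40 regions (5.0%, against 2.17% at Tfh genes and 0.736% at all genes). One lay at Ctla4, a regulatory T cell gene (gap 1.05, 1 of 131 regions), and 0 lay at the B cell, CD8 and NK, or lung structural genes. At Pax5, which codes for a B cell transcription factor, both LN libraries were above the lung in 6 of 8 regions, with a best gap of 0.91. The part of other cell types in the LN-high regions was not tested. A bulk library cannot tell a region that is open in more cells from one that is more open in each cell.

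The gene with the most LN-high regions was Lpp, the neighbour of Bcl6, with 9 of its 56 regions. Lpp codes for a focal adhesion protein. All 9 lay between 612 and 964 kb from the start of Bcl6, and 6 of them fell within chr16:24836470-24860874. In 28 of the 56 regions both LN libraries were above all lung libraries. The Lpp region with the widest gap, chr16:24839991-24840436, measured 4.41 and 4.29 in the LN, 2.15, 1.36 and 0.81 in lung IL-4+ cells and 1.00 and 1.22 in lung IFNγ+ cells. The most accessible, chr16:24860313-24860874, measured 4.94 and 4.71 in the LN, 2.45, 1.90 and 2.66 in lung IL-4+ cells and 1.83 and 2.25 in lung IFNγ+ cells. The density table does not say which gene a region acts on.

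**Figure D3:**
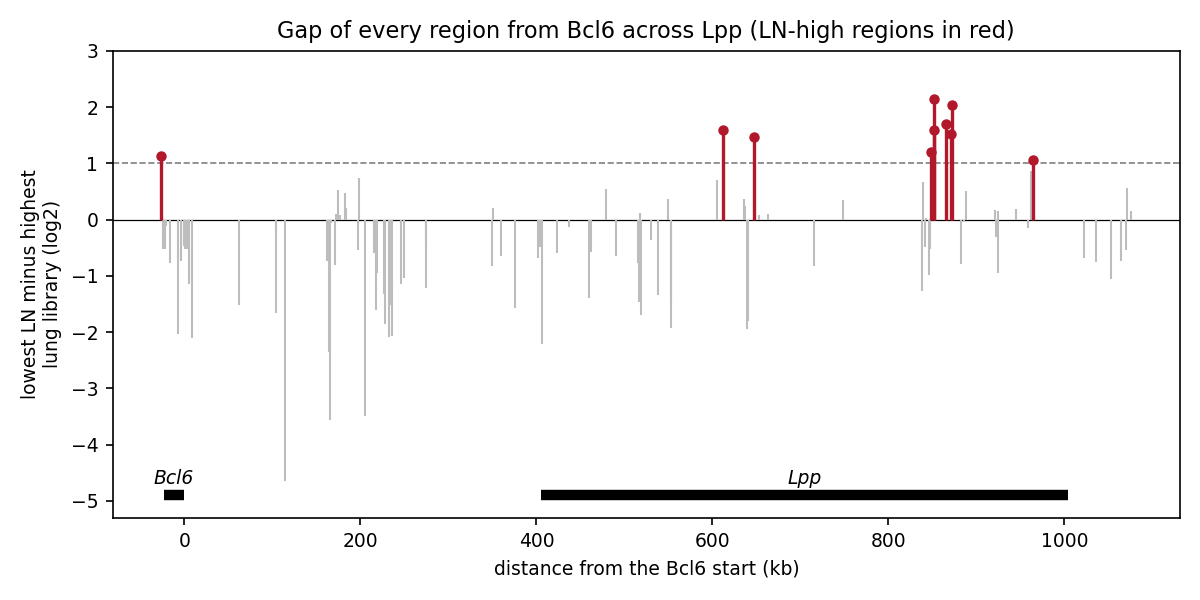
The gap (lowest LN library minus highest lung library, log2) of every region from Bcl6 across Lpp, by distance in kb from the start of Bcl6; red lines with dots are LN-high regions, grey lines are other regions, the dashed line is the threshold of 1 and black bars are the genes. One red line stands beside Bcl6 and 9 stand within Lpp, 6 of them in a cluster.

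Other genes with several LN-high regions were Arid1b (7 of 54 regions), which codes for a subunit of the BAF chromatin remodeller, Asap1 (6 of 105), Magi2 (5 of 22), Nav2 (5 of 80) and Stk39 (4 of 64). The first LN-high intron of Arid1b had one of the highest densities, 6.09 and 6.21 in the LN against 4.41, 3.84, 4.36, 5.04 and 5.08 across the lung. In Magi2, which codes for a scaffold protein, 4 regions lay within chr5:20061908-20087501, and the last of them measured 5.24 and 5.89 in the LN against 2.95, 1.84, 0.45, 2.04 and 2.72. A further 5 lay in a gene-poor stretch whose nearest start was that of Fam43a, chr16:30678445-30769951, of which the last measured 5.49 and 5.51 in the LN against 2.58, 2.54, 2.87, 3.02 and 3.61. On chromosome 10, 3 lay in chr10:21248610-21302285, in and before Hbs1l, a gene whose neighbour is Myb.

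Such groups were also seen among lung-high regions. Within 50 kb of another LN-high region were 202 of 877 (23.0%), in 18 groups of 3 or more, against 312 of 754 (41.4%) lung-high regions, in 42 such groups. Of the LN-high regions 215 lay outside every protein-coding gene and the 10 kb beside it. Chromosome 12 had the highest share of regions that were LN-high (1.16%), followed by chromosome 16 (1.11%), and the X chromosome had the lowest (7 regions, 0.321%).

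The 10 widest gaps were seen in regions below the accessibility minimum in both lung populations. An intron at chr7:121890606-121891006, within 10 kb of Cog7 and Scnn1b, measured 3.36 and 3.29 in the LN, 0.43, 0.27 and −0.79 in lung IL-4+ cells and −0.16 and 0.16 in lung IFNγ+ cells. The region near Zfp36l1, a gene for an RNA-binding protein that promotes mRNA decay, measured 4.36 and 4.13 in the LN against 0.95, −0.44, 1.45, 1.27 and 0.84 across the lung. The Pacsin2 intron measured 3.56 and 3.43 in the LN against 0.76, 0.49, 0.21, −0.21 and −1.08 across the lung. The other regions among the 10 widest gaps lay near or in Emx2, Bdkrb2, Ext2, Scfd2, Asb1, Tox2 and Fam43a, with gaps between 2.48 and 2.64.

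The LN-high regions with the highest LN density were, in contrast, accessible in every population. All 10 were accessible in both lung populations, and their gaps ran from 1.01 to 1.55. The highest, a Pptc7 intron at chr5:122288378-122288853, measured 6.78 and 6.75 in the LN, 5.58, 5.50 and 5.24 in lung IL-4+ cells and 5.36 and 5.32 in lung IFNγ+ cells. One lay upstream of Tnfrsf14, the gene for HVEM, which is the ligand of BTLA, and measured 5.72 and 5.76 in the LN against 4.26, 4.12, 3.65, 4.69 and 4.62 across the lung. The others were in or near Eipr1, Arid1b, Slc16a1, Fam174a, Tenm4, Gm11361, Lekr1 and Hpcal1.

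LN-high regions were mostly away from promoters. Within 1 kb of an annotated start were 9.24% of them (81 regions), against 27.8% of all regions, 42.3% of LN-accessible regions and 10.9% of lung-high regions. Introns held 54.5% (478), exons 10.9% (96) and intergenic DNA 25.3% (222). The median distance to a protein-coding start was 18668 bp, against 7739.5 bp over all regions, and 133 regions (15.2%) were more than 100 kb from one, against 8.24%. Their GC content had a median of 46.6% over the centre and 200 bases on either side (47.1% over all regions), with a mean of 5.63 CpG sites against 8.12.

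Of the promoter regions, 52 lay at a protein-coding gene. A start here is that of any annotated transcript. The regions at Dnajc1, Tcf12 and Ezh1 named below lay inside the gene, away from its outermost start. The widest gaps among these were at Dnajc1 (5.31 and 5.47 in the LN against 3.47, 2.87, 2.67, 3.20 and 3.17 across the lung) and at Susd4, which codes for a complement inhibitor (5.52 and 5.74 against 3.72, 3.14, 2.90, 2.82 and 3.17). Regions at annotated starts of Tcf12 (the E protein HEB), Ezh1 (a histone H3K27 methyltransferase) and Tnfsf8 (CD30 ligand) had gaps of 1.5, 1.05 and 1.05. These 3 were picked after their values were seen.

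Of 19 motifs searched as fixed letters, TCF/LEF had the highest ratio between LN-high and all regions. The centre with 200 bases on either side held ATCAAAG on either strand in 188 of 877 LN-high regions (21.4%), against 7.14% of all regions, 6.99% of LN-accessible regions and 5.44% of lung-high regions. The share was 3.00 times that of all regions. The octamer ATGCAAAT was next, with 5.70% against 2.35%. A match is a run of letters and not a measurement of binding, and shares were compared without a test.

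The difference in TCF/LEF letters was seen in every class of region that was examined. By place it was 14.8% of LN-high promoters against 4.53% of LN-accessible promoters, 17.7% against 7.38% in exons, 21.8% against 9.29% in introns and 24.8% against 8.65% in intergenic DNA. In the lowest of 3 equal classes of GC content it was 27.9% against 11.3%, in the middle class 18.6% against 8.71% and in the highest 17.9% against 4.69%. Among regions still accessible in the lung it was 25% against 6.24%, and among those accessible in neither lung population 20.5% against 11.8%. The matches also lay nearer the centre, with 40.8% of 218 matches within 50 bp of it in LN-high regions and 28.9% of 3451 in LN-accessible regions. LN-high regions were shorter, with a median of 492 bp against 705 bp, and the part of length in this was not tested.

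TCF/LEF letters became more frequent as the gap widened. Over LN-accessible regions they were in 5.79% of those with a gap below −2 and in 5.66% of those between −0.5 and 0. From there the share was 8.80% up to 0.5, 15.3% up to 1, 19.1% up to 1.5, 24.4% up to 2 and 37.3% (19 of 51) beyond. AP-1 letters (TGANTCA) ran the other way on the lung side, from 32.8% at a gap below −2 to 10.2% between −0.5 and 0. Of the 10 LN-high regions with the widest gaps 6 held TCF/LEF letters, among them the regions near Zfp36l1 and Bdkrb2 and in Pacsin2 and Tox2 printed above. Of the 10 Tfh gene regions 2 did, Tox2 and Btla, as did 2 of the 9 in Lpp.

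**Figure D4:**
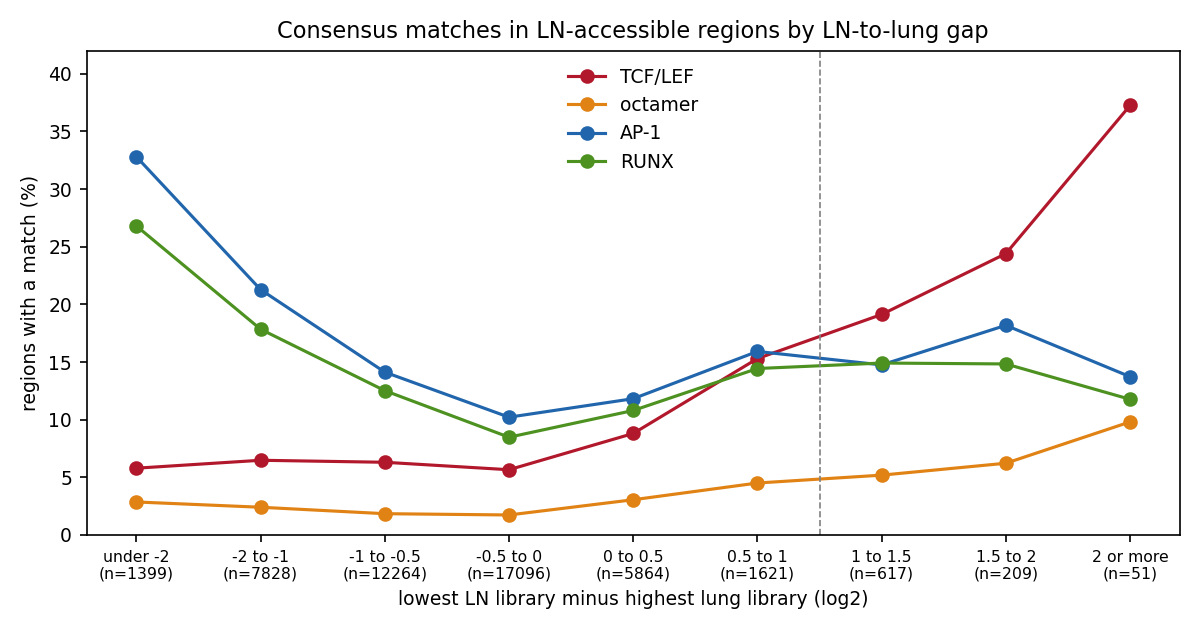
Share of LN-accessible regions (%) with TCF/LEF (red), octamer (orange), AP-1 (blue) or RUNX (green) letters within 200 bases of the centre, by the gap between the lowest LN and the highest lung library (log2), with the number of regions under each bin. Right of the dashed line are LN-high regions, where TCF/LEF rises from 19.1% to 37.3%.

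E-boxes, which are frequent words, differed less. CAGCTG was in 29.1% of LN-high regions against 20.7% of all regions, and CAGGTG in 36.1% against 28.1%. Regions with TCF/LEF letters held CAGCTG in 22.9% of cases and those without in 30.8%. NFAT letters (TGGAAAA) were in 14.0% against 9.58%, IRF letters (AANTGAAA) in 16.8% against 12.5%, and EGR letters (GCGTGGG) in 5.70% against 3.49%, though the last were as frequent in LN-accessible regions (5.73%).

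Lung-high regions had other motifs at their highest shares. AP-1 letters were in 39.4% of lung-high and 15.5% of LN-high regions, with 15.999% over all regions. RUNX letters (AACCACA) were in 27.7% and 14.7%, against 13.6% over all. GATA-factor letters, spelled AGATAA, were in 27.5% and 22.3%, against 19.8%. The nuclear receptor half-site AGGTCA was in 29.4% and 20.1%, against 22.9%. CTCF core letters (AGGGGGC) were in 5.13% of LN-high and 11.2% of LN-accessible regions. NF-kappaB (GGGANTTCC), STAT (TTCCNGGAA), T-box (AGGTGTGA), BCL6 (TTCCTNGAA) and KLF (GGGTGTGG) letters were each in at most 3.19% of LN-high regions and less frequent there than over all regions. These shares rest on few LN-high regions, from 7 for STAT to 28 for KLF. BCL6 letters were as frequent in LN-high as in LN-accessible regions (2.17% in each). ETS (AGGAAGT) was in 19.6% against 16.3%, and FOXO (TGTTTAC) in 6.39% against 5.81%.

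**Figure D5:**
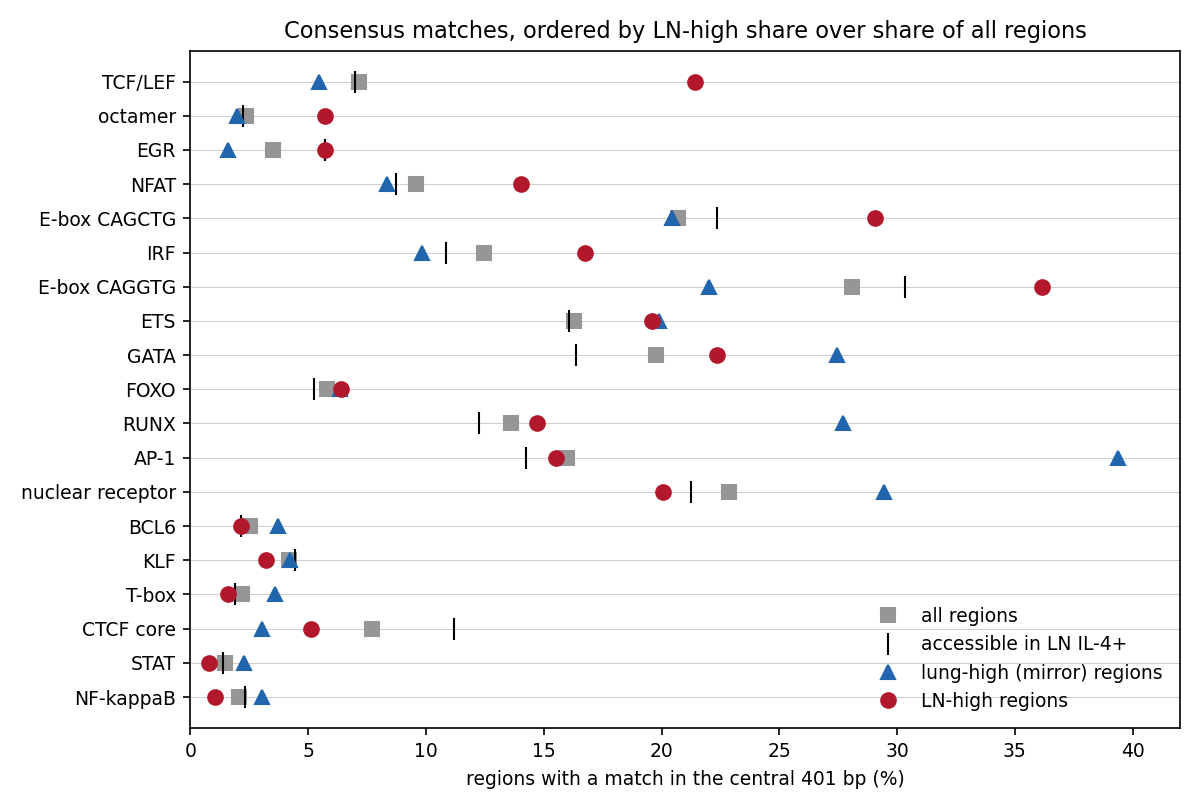
Share of regions (%) with the letters of each of 19 motifs within 200 bases of the centre, for LN-high regions (red circles), all regions (grey squares), LN-accessible regions (black ticks) and lung-high regions (blue triangles), ordered by the ratio of LN-high to all. TCF/LEF is at the top with 21.4% against 7.14%, and AP-1 has the widest distance between lung-high (39.4%) and LN-high (15.5%).

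Whether the 2 lung populations differed at LN-high regions was tested, since the rule set an upper bound on lung density but took no difference between lung IL-4+ and lung IFNγ+ cells. By limma's moderated test over all 113820 regions, at an adjusted p under 0.05 and 3-fold, 1 LN-high region (0.114%) was called, against a background of 0.496% of all regions. At an unadjusted p below 0.05 there were 82 (9.35%), 49 higher in lung IL-4+ and 33 higher in lung IFNγ+ cells, against a background of 14.8%. The means of the lung populations were more than 1 apart in 68 LN-high regions (7.75%) and in 16.1% of all regions. Lung IL-4+ cells had the higher mean in 444 and lung IFNγ+ cells in 433, and the median difference was 0.01. The ceiling that the rule sets on every lung library limits how far these populations can differ here, and how far it did so was not tested.

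The single region called was intergenic, at chr12:25600944-25601389, 504026 bp from the nearest start, that of Id2. It measured 4.39 and 4.92 in the LN, 2.63, 2.97 and 2.30 in lung IL-4+ cells and 0.30 and 1.00 in lung IFNγ+ cells. The lung groups did not overlap, and the lung IL-4+ libraries stood between the LN and the lung IFNγ+ libraries. The difference between the lung populations was 1.98 ± 0.35 (SE) on the log2 scale, with an adjusted p of 0.03965 by limma with n = 3 and n = 2. Id2 codes for an inhibitor of E proteins, and whether this region acts on it is not known from the table. The call was lost when lung IL-4+ replicate 2 or 3 was dropped, where 0 LN-high regions were higher in lung IL-4+ cells. Over all regions, these fits called 0 and 5 higher in lung IL-4+ cells, against 123 with every library. Higher in lung IFNγ+ cells they called 1 and 40, against 441. The loss was therefore not particular to this region. With replicate 1 dropped, 1 LN-high region and 262 of all regions were higher in lung IL-4+ cells. Dropping a lung IFNγ+ library leaves 1 in that group, so such a fit cannot show whether the call holds.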

How the data were processed

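ATAC-seq was analysed from 7 libraries of sorted CD4+ T cells, put in groups by labelled tissue and reporter. The authors mapped reads to GRCm38/mm10 with Bowtie2 2.3.2, called summits with MACS2 2.1.1, merged regions, and normalized insertions with voom. The deposited values are the authors' log2 values of insertions per kilobase and go below 0. All 113820 regions were used with no pseudocount or filter. Coordinates are printed from 1. Counts were rebuilt from the order of distinct values in each library, so that depth and counts are lower bounds.

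The rule was applied to the deposited log2 values. The members, gene lists and motifs were chosen with earlier results of these data known. The lung contrast was fitted with limma 3.58.1 in R 4.3.3 (lmFit with 1 mean for each of 3 populations, eBayes with trend, Benjamini-Hochberg over all regions), a procedure tested on simulated data. Region features came from GENCODE M21 and sequences from RefSeq GRCm38.p6. A promoter was a region within 1 kb of the start of any annotated transcript, and distances are to the nearest protein-coding start. Motifs were searched as fixed letters on both strands within 200 bases of the centre. Named regions were those with the widest gap at each Tfh or LN homing gene, the 10 widest gaps, the 10 highest LN means, the genes with most members, those called in the lung contrast and the 3 nearest the threshold on each side. Alternatives were other thresholds, windows, normalizations, weights and libraries left out. Values of some listed genes are not reported here.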

Additional observations from a re-analysis of the deposited data

How the results depend on the processing

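The number of LN-high regions followed the thresholds: it was 2095 at a gap of 1.5-fold, 208 at 3-fold, 51 at 4-fold, 501 with an LN density of at least 10, and 2743 when population means replaced the lowest and highest library. Leaving out 1 library gave between 950 and 2688, with the highest counts of 2526 and 2688 when LN replicate 1 or 2 was left out. In the lung contrast, members called higher in lung IL-4+ cells numbered 6 with array weights and 0 with median centring, with log2(density + 1) and with treat at 1.5-fold, against 1 as reported, and between 0 and 1 with a library left out. Those called higher in lung IFNγ+ cells numbered 9 with array weights against 0, and between 0 and 3 with a library left out, the 3 without lung IL-4+ replicate 1. Over all 113820 regions the calls higher in lung IL-4+ and in lung IFNγ+ cells were 123 and 441 as reported. They were 3121 and 3440 with array weights, 70 and 439 with median centring, 87 and 608 with log2(density + 1) and 1 and 3 with treat. Without lung IL-4+ replicate 1 they were 262 and 906. With the replicate number as a replicate block, 0 members and 0 of all regions were called in either direction. Same-numbered libraries did not deviate together (correlations of deviations between -0.54 and 0.057). In a group of 2 libraries the deviations mirror each other, and the spread classes cut across the replicate numbers. These correlations therefore cannot show whether the numbers pair the libraries. With the spread class as a covariate, which was added after seeing the data, 1 member was called, as reported. Over all regions this setting called 570 higher in lung IL-4+ and 746 higher in lung IFNγ+ cells. Within 100 bases of the centre, the ratio of the LN-high share to that of all regions was 3.53 for TCF/LEF (3.00 within 200 bases) and 0.393 for T-box (0.725), with the same direction. Promoters held 6.84% of LN-high regions at 500 bp and 15.96% at 2 kb. Tfh genes with a member numbered 6 with the gene body alone, and LN homing genes with a member 2 within 25 kb. The cause of these changes was not tested beyond what each setting fixes by construction. The other 69 alternative values stayed within the limits set for no change. Few insertions stood behind the lung values of members, with a median of 37 to 93, because the rule takes regions that are low in the lung.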
